A study of Homo sapiens with 6 samples.

Results

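Desmosomes are the cell junctions that tie the keratin filaments of neighbouring epithelial cells together. Desmogleins and desmocollins, which are cadherins, span the membrane and bind across the gap between cells. Inside the cell, armadillo-repeat proteins (plakoglobin and the plakophilins) join the cadherin tails to plakins, large linker proteins that hold the intermediate filaments. The urothelium, the lining of the bladder, carries such junctions and is stretched each time the bladder fills.

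The 10 genes described here were 3 plakin genes (PPL, EVPL and DSP), 4 genes of armadillo-repeat proteins (JUP, PKP2, PKP3 and PKP4) and 3 desmosomal cadherin genes (DSG2, DSC2 and DSC3), out of 20442 genes in the deposited count table. They were chosen by gene name, with their read counts in this same comparison already known, so their differences between groups are given as a description. No p-value is given for any of them, and their edgeR calls are counted beside the share called over all genes without being read as evidence. RNA was sequenced from T24, a human bladder cancer cell line of epithelial origin, in 2 groups of 3 libraries. The si-KNSTRN cells received, for 24 h, an siRNA (a short RNA that directs the breakdown of matching transcripts) against KNSTRN, the gene of a protein of the mitotic spindle and kinetochore, and the si-NC cells received a control siRNA for 24 h. Both groups are the same single cell line, and the genotype labels read KNSTRN knockdown and NC knockdown. The submitters call the libraries of a group biological replicates.

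Library totals ran from 17870543 to 19717513 counted reads in si-KNSTRN and from 16386799 to 20596074 in si-NC. Levels are given in CPM, reads scaled to library size after TMM adjustment between libraries. KNSTRN stood at 13.1 ± 0.821 CPM in si-KNSTRN and 40.5 ± 1.92 CPM in si-NC (SD, n = 3 each), 32.4% of the control level. Of 6 epithelial marker genes, KRT7, KRT8 and KRT18 were abundant, with group means between 843 and 1186 CPM, while EPCAM and KRT19 lay near 1 CPM and CDH1, the gene of E-cadherin, had no read in any library. A count of 0 allows up to 3 reads, which was 0.148 to 0.187 CPM here, for counting error only. Summed markers of the urothelial list, of which 5 of 7 were under 1 CPM, ran from 44.6 to 49.6 CPM in si-KNSTRN and from 29.4 to 33.6 CPM in si-NC, nearly all of it PPARG. Summed fibroblast markers ran from 10.9 to 12.7 CPM in si-KNSTRN and from 14.5 to 16.3 CPM in si-NC, nearly all of it COL1A1, endothelial markers stayed below 1.47 CPM in each library, and summed leukocyte markers ran from 45.7 to 48.3 CPM in si-KNSTRN and from 30.8 to 36.2 CPM in si-NC, nearly all of it the lysosomal gene CD68, with PTPRC at 6 reads in all and CD3E at 0. Summed markers of terminal keratinocytes ran from 24.5 to 28.2 CPM in si-KNSTRN and from 21.2 to 23.2 CPM in si-NC, nearly all of it KRT10, with KRT1 at 0. The part of these markers in the results below was not tested. In bulk RNA, fewer cells that express a gene and less of its RNA per cell cannot be told apart.

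The neighbouring genes DSC3 and DSC2 carry the only matches among the 10 genes to TGAGTA, a word of 6 bases that an earlier analysis of these data had found more often in the 3' untranslated regions (UTRs) of genes with lower levels in si-KNSTRN cells. DSC2 held 2 matches and DSC3 held 3, and 1 match of each gene is not printed here. The set is shown because both genes were lower in si-KNSTRN cells. The earlier finding was not tested again here. As the word was itself found on these data, its match to lower genes is a description and not evidence. Each line gives the 30 bases around a match in the chosen GENCODE release 29 transcript, 5′ to 3′ on the transcript's strand, with the position counted from the first base after the stop codon. Capitals mark TGAGTA with the adjoining A after it where present.

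DSC2, position 7142: gaaacacattgaTGAGTAAaatttcacaat

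DSC3, position 382: aacaagaaatatTGAGTAtcactatgtgaa

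DSC3, position 3325: cagctttacagaTGAGTAtctatgatacat

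The 3' UTRs of these transcripts were long, at 9175 bases for DSC2 and 4167 bases for DSC3. TGAGTA occurred in the 3' UTR of 27.3% of 11952 tested genes, where UTRs under 50 bases were left out, and in 76.6% of the 1314 whose UTR reached 4000 bases. PPL, PKP3, JUP, DSP and PKP2, also lower without overlap in si-KNSTRN, had no match in UTRs of 877, 339, 1140, 839 and 1679 bases. A match describes the letters of the chosen transcript only. Whether these cells use the part of the UTR that holds it was not tested. The sources used here do not give the siRNA sequences.

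The chief difference lay in PPL, the gene of periplakin, a plakin that links membrane sites to keratin and vimentin filaments and is abundant in the upper layers of stratified epithelia. PPL was 6.91-fold lower in si-KNSTRN cells. DSC3, PKP3, DSC2 and JUP were lower by 1.39-fold to 1.91-fold, DSP by 1.10-fold, and EVPL was slightly higher. PKP4 and DSG2, the most abundant desmosomal cadherin gene per length, overlapped between groups. By edgeR's quasi-likelihood test across the 12650 genes that passed the low-count filter, at an adjusted p under 0.05, 6 of the 10 were called, all lower, where 62.5% of all genes tested were called, 31.3% lower and 31.2% higher. All 10 passed the filter. DESeq2, at an adjusted p under 0.05, called the same 6 genes lower and none higher. Of all 12650 genes tested, it called 3489 lower and 3656 higher. At an unadjusted p under 0.05, EVPL was also higher by edgeR but not by DESeq2, and the share over all genes was not counted there. Since this comparison was in view when the genes were chosen, nothing is read from these counts. The groups did not overlap in CPM for 7 genes that were lower in si-KNSTRN and 1 that was higher. Over all genes tested, 33.9% were lower and 33.4% higher without overlap. The median log2 fold change of the 10 genes was -0.33, against -0.01 over all genes tested.

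**Figure D1:**
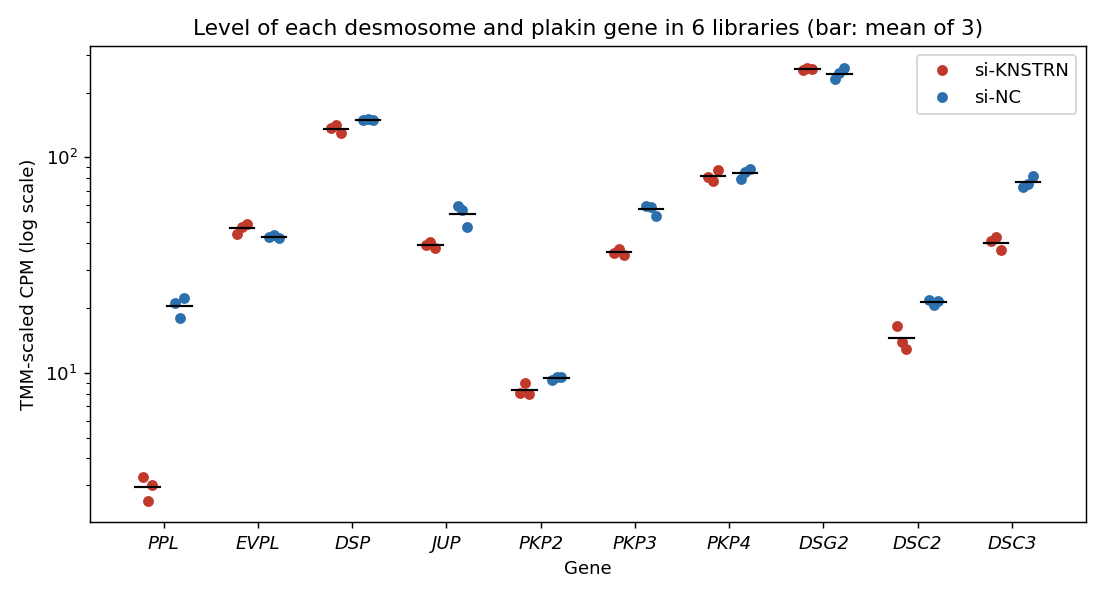
TMM-scaled CPM (log axis) of each of the 10 genes in the si-KNSTRN libraries (red, left of each pair) and the si-NC libraries (blue), with bars for group means. PPL lies between 2.55 and 3.29 CPM in si-KNSTRN and between 17.9 and 22.3 CPM in si-NC, and PKP4 and DSG2 overlap between groups.

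PPL (chromosome 16, 4882507 to 4937148, minus strand, GRCh38.p14) was counted 65, 46 and 56 times in the si-KNSTRN libraries, in the order 1 to 3, and 429, 288 and 406 times in the si-NC libraries. In CPM this was 3.29, 2.55 and 3.01 in si-KNSTRN and 21.1, 17.9 and 22.3 in si-NC. Every si-KNSTRN library was far below every si-NC library, with the closest libraries of the groups 2.45 apart on the log2 scale. The means were 2.95 ± 0.373 CPM in si-KNSTRN and 20.5 ± 2.27 CPM in si-NC (SD, n = 3 each), and the fitted log2 fold change was -2.79 (SE 0.12). Ordered from the lowest log2 fold change, PPL ranked 7 among 12650 genes tested.

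EVPL encodes envoplakin, which forms heterodimers with periplakin and is cross-linked with it into the cornified envelope of squamous epithelia. EVPL (chromosome 17, 76006845 to 76027306) had 44.2, 47.5 and 49.1 CPM in si-KNSTRN libraries 1 to 3 and 42.8, 43.6 and 42.0 CPM in si-NC libraries 1 to 3. The si-KNSTRN libraries were all above the si-NC libraries, but by a margin of 0.019 on the log2 scale between the closest. The log2 fold change was 0.13 (SE 0.06). Per kb of transcript, EVPL stood at 12.7, 17.6 and 15.4 times PPL in si-KNSTRN libraries 1 to 3 and at 1.91, 2.30 and 1.78 times PPL in si-NC libraries 1 to 3.

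DSP encodes desmoplakin, the obligate plakin of the desmosome, which anchors intermediate filaments to the plaque. DSP (chromosome 6, 7541671 to 7586714) had 137, 141 and 130 CPM in si-KNSTRN and 148, 151 and 150 CPM in si-NC. The groups were apart by 0.073 on the log2 scale, and the log2 fold change was -0.14 (SE 0.05). Its call depended on the scaling and on the libraries: it was not called with library size alone or without si-KNSTRN library 3, and its log2 fold change ran from -0.18 to -0.10 over 14 alternatives. Without si-KNSTRN library 3, 5 of the 10 genes were called in all. Over all genes, 7444 of 12757 tested were called in that setting, against 7905 of 12650 in the main analysis.

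Among the armadillo-repeat genes, PKP3 and JUP were lower in si-KNSTRN. PKP3 encodes plakophilin 3, which strengthens desmosomes by binding several of their components. PKP3 (chromosome 11, 392596 to 404908) had 35.8, 37.7 and 35.4 CPM in si-KNSTRN and 59.5, 59.0 and 53.4 CPM in si-NC. The groups were well apart, and the log2 fold change was -0.66 (SE 0.06). JUP encodes plakoglobin, a close relative of beta-catenin that serves both desmosomes and adherens junctions. JUP (chromosome 17, 41754609 to 41786711) had 39.2, 40.6 and 38.1 CPM in si-KNSTRN and 59.4, 56.7 and 47.6 CPM in si-NC. The si-NC libraries were spread more widely, with library 3 lowest but still above every si-KNSTRN library, and the log2 fold change was -0.47 (SE 0.07).

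The other plakophilin genes differed little. PKP2, whose protein is the main plakophilin of heart muscle and of simple epithelia, had 8.04, 8.92 and 7.97 CPM in si-KNSTRN and 9.21, 9.52 and 9.56 CPM in si-NC. Its groups did not touch, but its low counts of 148 to 187 reads per library gave a log2 fold change of -0.18 with an SE of 0.10. PKP4, the gene of p0071, a p120-catenin relative found at both kinds of junction, had 81.3, 78.0 and 87.4 CPM in si-KNSTRN and 79.8, 85.7 and 88.3 CPM in si-NC, which overlapped. Its log2 fold change was -0.04 (SE 0.05). PKP2 (chromosome 12, 32790755 to 32896777) shared 7.10% of its 50-base windows with another gene, and PKP4 (chromosome 2, 158456952 to 158681429) overlaps LOC124907900, whose reads cannot be told apart without strand.

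**Figure D2:**
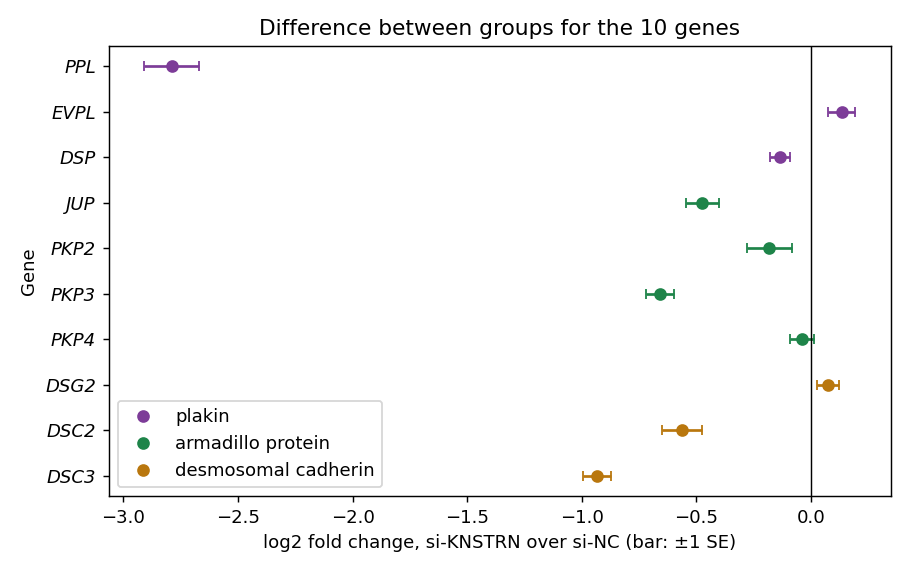
log2 fold change of si-KNSTRN over si-NC for the 10 genes, coloured by protein class, with bars of 1 SE. PPL stands at -2.79, DSC3 at -0.93 and PKP3 at -0.66, while EVPL at 0.13 and DSG2 at 0.07 lie right of 0.

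The desmosomal cadherin genes form a cluster of 7 genes on chromosome 18. DSC3 (30989365 to 31042742) and DSC2 (31058840 to 31102421) lie side by side, 16097 bases apart, and DSG2 (31498177 to 31549008) closes the other end. Between them DSC1, DSG1, DSG4 and DSG3 had 5, 0, 0 and 2 reads in all 6 libraries together. Reads thus came from the ends of the cluster, and the inner genes, known for their use in stratified epithelia such as skin, were at or near 0.

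DSC3 encodes a desmocollin of basal layers in stratified epithelia. It had 41.0, 42.5 and 37.0 CPM in si-KNSTRN and 73.0, 75.6 and 81.8 CPM in si-NC. The groups were 0.781 apart on the log2 scale at their closest, and the log2 fold change was -0.93 (SE 0.06). DSC2, the most widely expressed desmocollin gene, had 16.5, 13.96 and 12.9 CPM in si-KNSTRN and 21.8, 20.7 and 21.5 CPM in si-NC. All si-KNSTRN libraries were lower, and the log2 fold change was -0.56 (SE 0.09). DSG2, the desmoglein gene of simple epithelia and heart, had 254, 261 and 258 CPM in si-KNSTRN and 230, 245 and 260 CPM in si-NC. Its groups overlapped because si-NC library 3 lay among the si-KNSTRN libraries, and its log2 fold change was 0.07 (SE 0.05).

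The proximal promoters of these 3 cadherin genes, from RefSeq on GRCh38.p14, are shown because neighbours of 1 cluster differed in how they moved. Each runs 5′ to 3′ on the gene's strand from 250 bases before to 50 bases after the start of the gene. Capitals mark CAGGTG, an E-box bound by ZEB and SNAI factors, and GGGCGG, a box bound by SP and KLF factors, on either strand.

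DSC3, chr18:31042693-31042992, minus strand: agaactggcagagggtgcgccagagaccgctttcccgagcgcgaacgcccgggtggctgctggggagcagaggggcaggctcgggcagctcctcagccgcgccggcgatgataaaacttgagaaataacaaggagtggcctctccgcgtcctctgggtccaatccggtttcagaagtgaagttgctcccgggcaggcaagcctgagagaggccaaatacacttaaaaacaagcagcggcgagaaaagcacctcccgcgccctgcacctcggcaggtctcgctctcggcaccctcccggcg

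DSC2, chr18:31102372-31102671, minus strand: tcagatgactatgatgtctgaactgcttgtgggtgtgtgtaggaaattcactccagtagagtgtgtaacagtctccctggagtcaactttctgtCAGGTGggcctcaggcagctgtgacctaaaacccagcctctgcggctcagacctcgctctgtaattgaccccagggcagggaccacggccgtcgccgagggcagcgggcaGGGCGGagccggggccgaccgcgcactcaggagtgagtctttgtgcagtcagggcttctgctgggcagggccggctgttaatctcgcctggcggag

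DSG2, chr18:31497927-31498226, plus strand: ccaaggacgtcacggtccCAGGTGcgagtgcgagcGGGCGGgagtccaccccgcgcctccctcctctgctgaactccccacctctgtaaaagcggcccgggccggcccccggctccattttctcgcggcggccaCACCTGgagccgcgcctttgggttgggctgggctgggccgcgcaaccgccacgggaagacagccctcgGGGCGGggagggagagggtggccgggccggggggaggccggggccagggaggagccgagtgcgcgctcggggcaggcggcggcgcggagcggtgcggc

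The DSC3 window held neither box. The DSC2 window held CAGGTG from position -156 and GGGCGG from position -46, counted from the first base of the gene as 0, and the DSG2 window held 2 of each. Promoters of 6 of the 10 genes were matched (DSP, JUP, PKP4, DSG2, DSC2 and DSC3). CAGGTG was in 3 of them and in 20.6% of all 27305 promoters of that length, and GGGCGG in 5 of them and in 44.6% of all. The 6 windows were 60.7% (DSC2) to 77.0% (DSP) G and C, against a median of 58.3% over all promoters. The part of base content in these shares was not tested. The AP-1 site TGANTCA, the Grainyhead-like site AACCGGTT and the TATA box TATAAA, searched on both strands, were in none of the 6 windows and in 7.76%, 0.117% and 11.95% of all. None of the searched words is contained in another.

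The balance of genes within each protein class shifted. Counts were divided by transcript length for this, giving CPM per kb, so that genes can be set beside each other. In si-NC, DSG2 led at 42.0 ± 2.52 CPM per kb, followed by PKP3 (20.4 ± 1.203), PKP4 (19.0 ± 0.984), JUP (15.6 ± 1.77), DSP (15.3 ± 0.128), DSC3 (11.1 ± 0.652), EVPL (6.47 ± 0.119), PPL (3.28 ± 0.365), PKP2 (2.19 ± 0.044) and DSC2 (1.73 ± 0.050; all SD, n = 3). The libraries of PKP3 and PKP4 overlapped in that order, as did those of JUP and DSP, and every other neighbour pair was apart. In si-KNSTRN the order was DSG2 (44.2 ± 0.656), PKP4 (18.5 ± 1.08), DSP (13.9 ± 0.563), PKP3 (12.9 ± 0.449), JUP (11.2 ± 0.351), EVPL (7.10 ± 0.378), DSC3 (5.79 ± 0.411), PKP2 (1.93 ± 0.123), DSC2 (1.17 ± 0.150) and PPL (0.473 ± 0.060). There, DSP and PKP3 overlapped, and the other neighbours were apart. The length used for DSC2, 12325 bases, holds its 3' UTR of 9175 bases, so its place depends on that UTR being in use. The place of PKP4 in si-NC also depends on the transcript chosen. With the longest transcript of each gene as length, PKP4 stood below JUP and DSP there. PPL moved to the last place in si-KNSTRN, against the 8th of 10 in si-NC, and EVPL stood above DSC3 in si-KNSTRN and below it in si-NC.

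**Figure D3:**
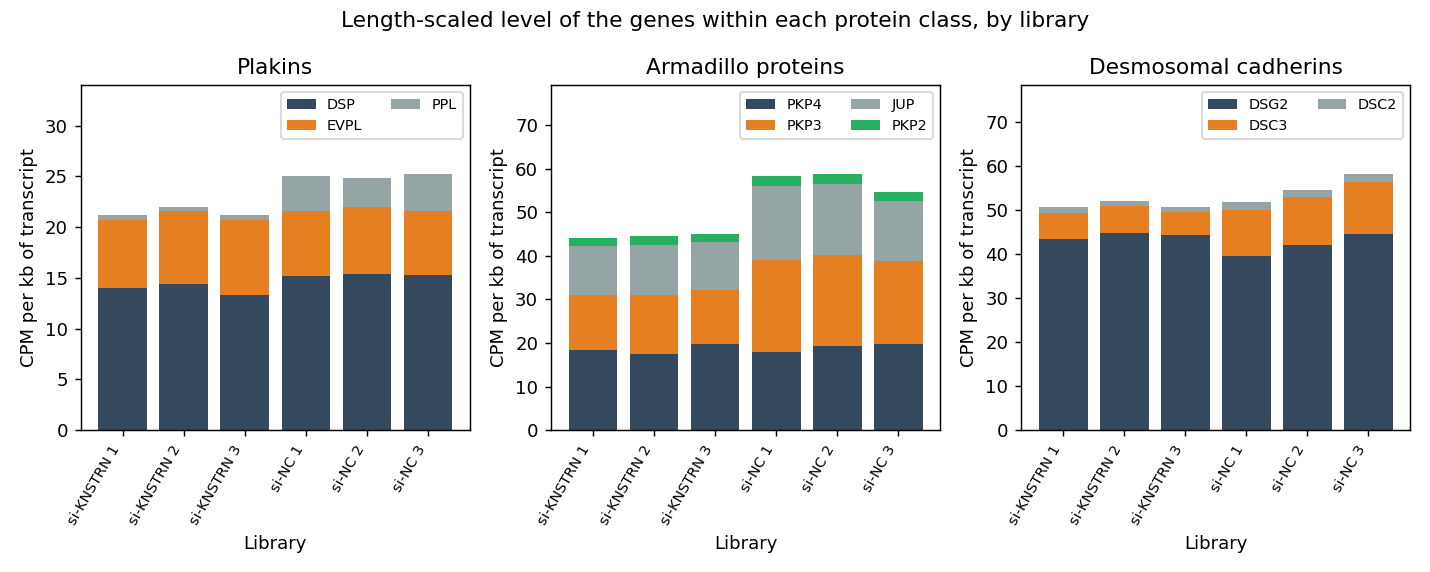
Level in CPM per kb of transcript, stacked by gene for plakins, armadillo-repeat proteins and desmosomal cadherins, in each si-KNSTRN library (left 3 bars) and si-NC library (right 3 bars). The armadillo-repeat sum is 44.1 to 45.0 in si-KNSTRN and 54.7 to 58.7 in si-NC, and PPL is 2.21% of the plakin sum in si-KNSTRN and 13.1% in si-NC.

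Summed over the 3 plakins, the level was 21.5 ± 0.446 CPM per kb in si-KNSTRN and 25.0 ± 0.166 CPM per kb in si-NC (SD, n = 3 each). PPL made up 2.21 ± 0.318% of that sum in si-KNSTRN and 13.1 ± 1.38% in si-NC, while the EVPL share was 33.1 ± 1.81% in si-KNSTRN and 25.9 ± 0.645% in si-NC. The desmosomal cadherin sums, which overlapped between groups, were 51.1 ± 0.775 CPM per kb in si-KNSTRN and 54.8 ± 3.15 CPM per kb in si-NC. Within them, DSC3 made up 11.3 ± 0.690% in si-KNSTRN and 20.2 ± 0.213% in si-NC, and DSG2 86.4 ± 0.903% in si-KNSTRN and 76.6 ± 0.364% in si-NC. The armadillo-repeat sums were 44.6 ± 0.460 CPM per kb in si-KNSTRN and 57.2 ± 2.18 CPM per kb in si-NC. PKP4 was the leading gene of that class in si-KNSTRN, at 41.5 ± 2.21% against 33.3 ± 2.79% in si-NC, and PKP3 had 28.98 ± 1.06% in si-KNSTRN and 35.6 ± 0.815% in si-NC. The levels of PKP4 and DSG2 themselves overlapped between groups, so their larger shares go with lower levels of other genes of their class. The size of the PKP4 share also depends on the transcript length used. These shares follow from the same reads as the fold changes and are not separate evidence.

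Other genes of the desmosome and plakin families, which are not among the 10, were tested in the same fit. This list and those below were chosen with earlier results of these data known. Their calls and p-values are therefore not independent evidence. Of 11 such genes 5 passed the low-count filter, of which 3 fell and 1 rose. Here and in the lists below, such counts stand beside 31.3% called lower and 31.2% called higher over all genes tested. Nothing is read from the counts alone. PLEC, which encodes plectin, the plakin that links filaments to hemidesmosomes and actin, fell to 966 ± 28.1 CPM in si-KNSTRN, against 1314 ± 60.3 CPM in si-NC (SD, n = 3 each; log2 fold change -0.44, SE 0.05, edgeR adjusted p = 7.7e-07). DST, the dystonin plakin gene, fell by 0.42 on the log2 scale (SE 0.04, edgeR adjusted p = 5.2e-07). CDSN, the gene of corneodesmosin, had 76 reads in si-KNSTRN and 165 in si-NC and fell by 1.15 (edgeR adjusted p = 0.00013), but it overlaps PSORS1C1, with which it shares 93.9% of its 50-base windows, so its value is uncertain. PERP, a small membrane protein gene of desmosomes, rose (log2 fold change 0.27, SE 0.05, edgeR adjusted p = 0.00039). MACF1, the spectraplakin gene, had 470 ± 4.19 CPM in si-KNSTRN and 467 ± 14.5 CPM in si-NC (log2 fold change 0.01, SE 0.04, edgeR adjusted p = 0.89). PKP1, the plakophilin gene of skin, had 1 read in all, and EPPK1 had 2.

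The hemidesmosome, which anchors keratin to the basement membrane through plectin, was divided: 3 of 7 genes rose and 3 fell. ITGB4, the integrin subunit that plectin binds, fell to 2.42 ± 0.415 CPM in si-KNSTRN, against 8.44 ± 1.10 CPM in si-NC (log2 fold change -1.80, SE 0.15, edgeR adjusted p = 3.2e-08). The tetraspanin gene CD151 fell by 1.02 on the log2 scale (SE 0.05). COL17A1, the transmembrane collagen of hemidesmosomes, rose to 53.8 ± 3.16 CPM in si-KNSTRN, against 30.7 ± 1.18 CPM in si-NC (log2 fold change 0.81, SE 0.06, edgeR adjusted p = 1.3e-08). ITGB4 overlaps GALK1.

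Of 15 adherens junction genes 11 were tested, of which 6 fell and 2 rose. CTNNB1, the gene of beta-catenin, fell to 255 ± 22.9 CPM in si-KNSTRN, against 471 ± 10.2 CPM in si-NC (log2 fold change -0.89, SE 0.06, edgeR adjusted p = 1.6e-09). The actin linker gene VCL, which overlaps AP3M1, fell by 0.84 (SE 0.05) and the nectin gene NECTIN3 by 0.55 (SE 0.07) on the log2 scale. PVR, a nectin-like receptor gene that overlaps CEACAM19, rose (log2 fold change 0.71, SE 0.07). CDH2, the gene of N-cadherin, had 128 ± 3.28 CPM in si-KNSTRN and 145 ± 7.79 CPM in si-NC and fell by 0.17 (SE 0.05, edgeR adjusted p = 0.0051); it was chosen after its values were seen.

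Tight junction genes also went both ways, with 6 of 18 tested lower, 4 higher and 8 not called. The number higher was 2 without si-NC library 2. The scaffold genes PATJ, TJP1 and MPDZ fell by 0.64, 0.44 and 0.39 on the log2 scale, with SEs of 0.07, 0.05 and 0.05.

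Among the intermediate filament genes that plakins bind, 8 of 16 were tested, of which 3 rose and 2 fell. VIM, the vimentin gene, fell to 3830 ± 224 CPM in si-KNSTRN, against 6474 ± 278 CPM in si-NC (log2 fold change -0.76, SE 0.05, edgeR adjusted p = 4.1e-09). KRT80 fell by 0.66 on the log2 scale (SE 0.07), and KRT7 and KRT81 rose by log2 fold changes of 0.23 (SE 0.05) and 0.39 (SE 0.06). KRT8 had 1081 ± 16.9 CPM in si-KNSTRN and 1080 ± 35.1 CPM in si-NC, and its log2 fold change was 0.00 (SE 0.05, edgeR adjusted p = 0.98). KRT81, VIM and KRT8 share 44.6%, 43.8% and 36.9% of their windows with other genes, KRT86, VIM-AS1 and keratin 8 pseudogenes foremost, which limits these values.

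Of 16 cornified envelope genes, the squamous setting in which periplakin and envoplakin are best known, 1 was tested and 9 had no read in any library. TGM1, the transglutaminase gene, had 1.59 ± 0.065 CPM in si-KNSTRN and 1.27 ± 0.108 CPM in si-NC (log2 fold change 0.33, SE 0.21, edgeR adjusted p = 0.19). Involucrin, loricrin and filaggrin genes (IVL, LORICRIN and FLG) were among those with no read.

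Of 15 transcription factor genes that act on epithelial junction genes, 7 were tested and 5 rose by edgeR. All 7 had a log2 fold change above 0, so that none fell at any threshold. The genes that rose are known for opposing actions on junctions. ZEB1 and SNAI2, repressors of epithelial cadherin genes, rose by log2 fold changes of 0.40 (SE 0.06, edgeR adjusted p = 1.4e-05) and 0.34 (SE 0.07, edgeR adjusted p = 0.00030). ZEB2, a repressor of the same kind that was named after its values were seen, rose by 0.20 (SE 0.06, edgeR adjusted p = 0.0081). KLF5 and GRHL1, activators in epithelia, rose by 0.43 (SE 0.07, edgeR adjusted p = 6.2e-05) and 0.98 (SE 0.23, edgeR adjusted p = 0.0013). GRHL1 rested on few reads, 108 in si-KNSTRN and 53 in si-NC. TP63 had 1 read in all, and GRHL2, OVOL1 and TWIST1 had none.

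**Figure D4:**
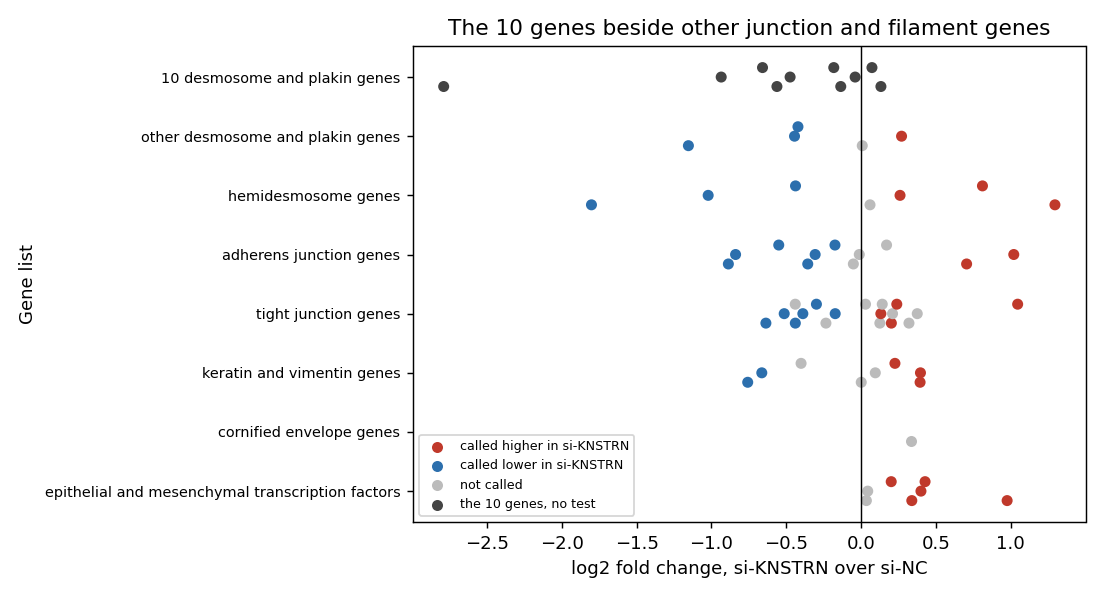
log2 fold change of si-KNSTRN over si-NC for each tested gene of 7 lists below the 10 desmosome and plakin genes. Red and blue points were called higher and lower at an adjusted p under 0.05, grey points were not, and dark points are the 10 genes. PPL at -2.79 lies left of every listed gene, of which ITGB4 at -1.80 is nearest.

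Among the 5 genes whose profile over the 6 libraries was nearest to that of PPL, by Euclidean distance of centred log2 CPM among 10703 other genes whose average log2 CPM reached 2, were SLC5A3 (distance 0.687), KCNS1 (0.824), PPFIA4 (0.831) and ARL6IP6 (0.835). Their log2 fold changes were -2.27, -2.35, -2.75 and -2.04. SLC5A3 overlaps MRPS6, and ARL6IP6 also overlaps a neighbouring gene. The nearest to EVPL, which had the highest log2 fold change of the 10, were SERP1, CARM1, TBC1D10B, PDK2 and EDC4, at distances of 0.035 to 0.047 and log2 fold changes of 0.12 to 0.16. With 2 groups of libraries such likeness mostly reflects the size of the group difference.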

How the data were processed

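The authors' deposited table holds unnormalized read counts per gene for 6 T24 libraries, 3 si-KNSTRN and 3 si-NC. Tools named in the submitters' processing notes are HISAT2 2.0.1, featureCounts, fastp 0.20.0 and FastQC 0.11.5, with the build GRCh38. Strand setting, handling of multi-mapping reads, annotation release and siRNA sequences were not given in the sources used here. Totals ran from 16386799 to 20596074 reads. No molecular identifiers are mentioned, so a floor of 3 reads covers counting error only. Replicate pairs differed by a chi-square per degree of freedom of 2.16 to 10.3, so none was merged. The highest values were those of si-KNSTRN library 3, at 10.3 against library 1 and 6.98 against library 2. Libraries 1 and 2 of si-KNSTRN gave 2.60.

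The counts were tested in R 4.3.3 with edgeR 4.0.16: filterByExpr (minimum count 10, 12650 of 20442 genes kept), TMM factors, and a quasi-likelihood test (two-sided), with Benjamini-Hochberg adjustment over all genes tested and calls at an adjusted p under 0.05. Lengths and 3' UTRs came from 1 GENCODE release 29 transcript per gene (19369 symbols matched), coordinates and promoters from RefSeq (GRCh38.p14). Named genes were KNSTRN, the 10 members, the 4 called genes with the smallest p in each list, and the 5 nearest profiles. Some genes and sequence matches that these rules select are not reported here. A few uncalled or unread list genes were named after their values were seen. Members and lists were chosen with earlier results of these data known. In a simulation of the si-KNSTRN against si-NC comparison, 200 genes were changed and every gene had the same dispersion (a coefficient of variation of 5.47%). Of 12566 genes tested there, edgeR recovered 63.3% of those changed 1.25-fold, 80% at 1.5-fold, 98.0% at 2-fold and 100% at 4-fold. It made 6 false calls among 12368 unchanged genes. In the data 62.5% of genes tested were called, so these rates describe the simulation and do not carry over to the data. Alternatives were DESeq2-type and upper-quartile factors, library size alone, DESeq2 1.42.0, limma-voom (limma 3.58.1), other low-count filters, a replicate block, a stricter threshold and each library left out. Summaries used Python 3.11.15, pandas 2.3.3 and matplotlib 3.10.9.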

Additional observations from a re-analysis of the deposited data

How the results depend on the processing

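All 10 genes kept the direction of their log2 fold change under 14 alternatives, from -2.88 to -2.70 for PPL and from -0.98 to -0.88 for DSC3. The number called was 6 in the main analysis and under 8 alternative settings of scaling, tool, filter and block, but with library size alone DSP was replaced by EVPL. Leaving out 1 library gave 5 to 7. DSP was lost without si-KNSTRN library 3, DSG2 was gained without si-NC library 3 and EVPL without si-KNSTRN library 1. Over all genes tested, 7905 were called in the main analysis and 7145 to 8094 under those 8 settings. With a library left out, 7224 to 7696 were called over all genes. Nothing is read from the changes in the member counts. DSP moved by more than its replicate spread with upper-quartile factors, to -0.18. Without the low-count filter 1 cornified envelope gene was called higher. Tight junction genes called higher numbered 2 at an adjusted p under 0.01 and 2 to 5 with a library left out. With the longest transcript as length, 3 genes (PKP4, JUP and DSP) changed place in the si-NC order and none in si-KNSTRN. The list genes named for their smallest p kept their direction and call under the same 14 alternatives. The other list genes were followed only through the counts of their lists.

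The labels do not say whether the replicate numbers pair the libraries. Correlations of same-numbered libraries' deviations were -0.06, 0.06 and -0.03, so no shared shift was seen. With 3 libraries per group this cannot settle whether they were paired. With the number as a block, 7688 genes were called in place of 7905, with the same 6 of the 10 genes. The causes of these differences were not tested. Low counts limit PKP2 and PPL most.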
